A study of Rattus norvegicus with 6 samples.

Results

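The genes described here encode the main hormones that the endocrine cells of the gut release, together with a key enzyme and a granule protein of those cells. A list of 10 gene symbols was matched to the array rows that the platform annotation gives exactly 1 symbol, and all 10 were found, each as a single row, among the 14506 genes tested. They are Gcg, Pyy and Nts, taken as hormones of the distal gut, Cck, Sct, Gip and Ghrl, taken as hormones of the proximal gut, and Sst, Tph1 and Chga, which are used along the whole gut. They were measured in the ileum of 6 obese Zucker fa/fa rats, a strain with a defective leptin receptor that both groups share, operated on at 20 weeks of age and killed 14 days later. In 3 rats a duodenum-jejunum bypass (DJB) carried food past the duodenum and upper jejunum, while bile and pancreatic juice joined it further down. In the 3 sham rats the gut was opened and closed again so that food kept its normal path. Each rat gave 1 Affymetrix rat gene array, and expression is given throughout on the log2 scale as RMA normalised it.

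Enteroendocrine cells are rare, scattered cells of the gut epithelium that sense the contents of the lumen and release peptide hormones or serotonin into the tissue and the blood. Hormone production is zoned along the gut. Cells making cholecystokinin or GIP are most common near the stomach. L cells, which make GLP-1 from proglucagon together with peptide YY, become more frequent towards the ileum and colon. Most of these peptides are cut from longer precursors and stored in granules with chromogranins. In whole tissue, as here, fewer cells of a type and less RNA per cell cannot be told apart.

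None of the 10 genes passed the test after DJB. By limma's moderated test with Benjamini-Hochberg adjustment over all genes tested, 0 of the 10 passed an adjusted p of 0.05, where 0.772% of all genes did, 0.393% of them higher and 0.379% lower after DJB. At an unadjusted p under 0.05, 3 of the 10 genes (Cck, Sct and Gip) were found, against 14.3% of all genes. The differences (DJB minus sham) of the distal hormone genes ran from -0.16 to 0.05, and those of the proximal hormone genes from -0.49 for Gip to 0.46 for Sct. The median difference was -0.06 over the 3 distal genes, -0.05 over the 4 proximal genes and 0.06 over the 3 genes used along the gut, beside 0.05 over all genes tested.

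**Figure D1:**
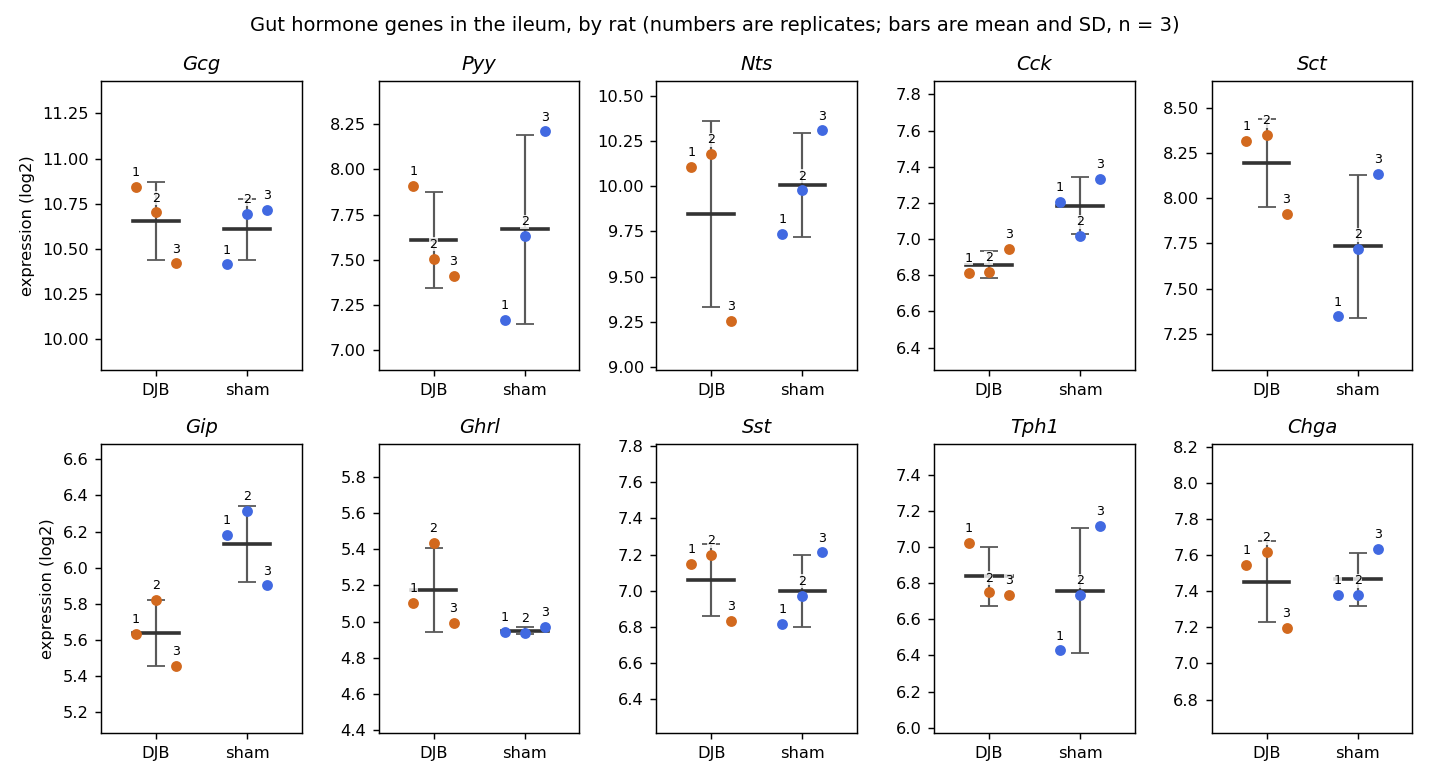
Expression (log2, vertical axis) of the 10 gut hormone genes in the ileum of DJB and sham rats. Each point is 1 rat, numbered by replicate, the bars are the mean and SD (n = 3), and every panel spans the same distance on the log2 scale. Only Cck, Gip and Ghrl have groups that do not overlap.

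The arrays themselves were alike, with correlations over all rows of 0.990 to 0.993 within a group and 0.987 to 0.990 between groups. Their medians lay between 6.08 and 6.11 except for DJB 1, at 6.19. The tissue label was checked against 5 ileum markers, all of which lay above the median of all values, 6.11: the bile acid binding protein gene Fabp6 stood at 13.88 ± 0.08 after DJB and 13.57 ± 0.12 in sham (SD, n = 3 each). Of these 5 markers 4 were higher and 1 lower after DJB, and 2 of them rose. Slc10a2, the ileal bile acid uptake transporter gene, rose by 1.73 ± 0.22 (SE; limma adjusted p = 0.0106), a call that ended with a trended, robust prior (0.0511). Nr1h4, the gene of the nuclear receptor FXR that binds bile acids, rose by 0.98 ± 0.15 (SE; limma adjusted p = 0.0275), a call that ended with the replicate block (0.0749), with all rows tested (0.0631) and without any single sham array (0.0931 to 0.113). Cubn, a receptor for vitamin B12 uptake, differed by -0.92 ± 0.31 (SE; limma adjusted p = 0.238). Stomach markers (4 measured of 6) all lay under that median. The colon markers (4 measured of 5) were all higher after DJB, 3 of them with a limma unadjusted p under 0.05, and 0 passed. Over all genes tested, 61.7% were higher and 14.3% had such a p. The 1 colon marker with a mean over the 6 arrays above that median was Slc26a3, at 10.67 ± 0.17 after DJB and 10.32 ± 0.26 in sham (SD, n = 3 each). Car1, a carbonic anhydrase gene, had 6.04, 7.50 and 8.56 in DJB 1, 2 and 3, against 4.40, 4.97 and 4.99 in sham 1, 2 and 3. This difference of 2.58 ± 0.51 (SE) did not pass (limma adjusted p = 0.0658). Epithelium markers (7 measured of 8) averaged 11.80 to 11.87 on the DJB arrays and 11.73 to 11.82 on the sham arrays.

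The bases before the start of a gene hold part of the code that sets in which cells it is read. They are shown for Gip, the proximal gene with the lowest p of the 10, and for Gcg, the distal gene with the smallest difference. Each run is the 250 bases before the RefSeq start in build GRCr8, on the gene's own strand, at chr10:81464820-81465069 (plus strand) for Gip and chr3:67531534-67531783 (minus strand) for Gcg. Capitals mark exact matches to GATAA, a core read by GATA factors, or to TATAAA, 1 form of the TATA box, on either strand.
Gip: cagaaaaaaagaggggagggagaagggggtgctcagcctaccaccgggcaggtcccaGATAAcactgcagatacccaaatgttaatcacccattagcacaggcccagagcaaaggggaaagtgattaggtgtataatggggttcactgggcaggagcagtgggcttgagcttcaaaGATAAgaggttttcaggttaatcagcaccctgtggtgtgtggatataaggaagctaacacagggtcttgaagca
Gcg: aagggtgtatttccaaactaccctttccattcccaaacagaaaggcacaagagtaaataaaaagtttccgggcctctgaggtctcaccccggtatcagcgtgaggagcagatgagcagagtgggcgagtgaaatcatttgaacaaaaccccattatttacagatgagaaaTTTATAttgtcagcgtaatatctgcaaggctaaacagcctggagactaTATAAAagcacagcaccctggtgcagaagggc
The Gip run holds GATAA at 193 and 74 bases before the start and no exact TATAAA. Near variants, such as the tataag close to the end of the Gip run, were not counted. The Gcg run holds TATAAA at 32 bases before the start, a match on the opposite strand at 80, and no GATAA. Among the 250-base runs of 33465 promoters in the same table, 23.5% hold GATAA and 12.9% hold TATAAA on either strand. The E-box CANNTG, which is its own reverse complement and is left in lower case here, is in 65.5% of them. The Gip run holds 1 E-box and the Gcg run 3. Runs were found for 7 of the 10 genes. A match is a description of letters and does not show binding.

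Among the distal hormones, Gcg encodes proglucagon, from which L cells cut GLP-1 and GLP-2. Its levels were 10.84, 10.70 and 10.42 in DJB 1, 2 and 3, against 10.41, 10.70 and 10.72 in sham 1, 2 and 3. Both groups covered nearly the same range, and the difference was 0.05 ± 0.14 (SE; limma adjusted p = 0.904). The 95% interval ran from -0.26 to 0.35, so that a mean rise of more than 1.28-fold lay outside it.

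Pyy encodes peptide YY, the L cell hormone that slows transit and reduces food intake. It had 7.91, 7.51 and 7.41 in DJB 1, 2 and 3, against 7.17, 7.63 and 8.21 in sham 1, 2 and 3. All DJB values fell within the span of the sham rats, which was 1.04 wide, the broadest within-group span of the 10 genes. The difference was -0.06 ± 0.24 (SE; limma adjusted p = 0.935), with a 95% interval from -0.60 to 0.48. A mean up to 1.40-fold higher or 1.52-fold lower lay within it.

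Nts encodes neurotensin, made by endocrine cells of the lower small intestine and released by fat. Its levels were 10.10, 10.18 and 9.25 in DJB 1, 2 and 3, against 9.73, 9.98 and 10.31 in sham 1, 2 and 3. DJB 3 was the lowest of the 6 and the other 2 DJB rats lay within the sham span. The difference of -0.16 ± 0.24 (SE; limma adjusted p = 0.808) became 0.13 without DJB 3, and the sign of Gcg and of Pyy also turned when 1 array was left out.

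Of the proximal hormones, Gip and Cck were lower after DJB in every rat, without passing the test. Gip encodes the incretin of the upper gut that K cells release on glucose and fat. It had 5.63, 5.82 and 5.46 in DJB 1, 2 and 3, against 6.18, 6.32 and 5.90 in sham 1, 2 and 3. The groups did not overlap, but the highest DJB value lay only 0.08 under the lowest sham value. The difference was -0.49 ± 0.14 (SE), 1.41-fold lower, with limma adjusted p = 0.165 and an exact two-sided permutation p of 0.1, the smallest that 3 against 3 arrays can give. All 3 DJB values and 1 sham value lay under 6.11, the median of all values, where summarised arrays understate fold changes.

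Cck encodes cholecystokinin, the I cell hormone that contracts the gallbladder and stimulates pancreatic secretion. It had 6.81, 6.82 and 6.95 in DJB 1, 2 and 3, against 7.20, 7.02 and 7.33 in sham 1, 2 and 3. Here too the groups did not overlap, with a gap of 0.07. The difference was -0.33 ± 0.11 (SE), 1.25-fold lower (limma adjusted p = 0.230). Cck is also made by neurons, and the 8 measured neuron and glia markers averaged 5.66 to 6.05 on the DJB arrays and 5.84 to 6.13 on the sham arrays; 7 of the 8 were lower after DJB, as were 38.3% of all genes tested, and 0 passed, and their part in the Cck difference was not tested.

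Sct and Ghrl had higher means after DJB. Sct encodes secretin, the S cell hormone that draws bicarbonate from the pancreas. Its levels were 8.32, 8.35 and 7.91 in DJB 1, 2 and 3, against 7.35, 7.72 and 8.14 in sham 1, 2 and 3. Sham 3 exceeded DJB 3, so the groups overlapped, and the difference was 0.46 ± 0.20 (SE), 1.38-fold higher (limma adjusted p = 0.338). It was 0.27 without sham 1. The limma unadjusted p of Sct was 0.0446 on the values as deposited. This p was over 0.05 under most alternatives, among them arrays centred on their medians (0.0564), the replicate block (0.0710) and quantile normalisation repeated (0.0516). Leaving out 1 array gave 0.0053 without sham 3 to 0.17 without sham 1.

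Ghrl encodes ghrelin, the hunger hormone made mainly in the stomach. Its row was dim on every array, with 5.10, 5.43 and 4.99 in DJB 1, 2 and 3, against 4.94, 4.93 and 4.97 in sham 1, 2 and 3. The groups were separated by 0.02, and the sham rats were within 0.04 of each other. The difference was 0.23 ± 0.12 (SE; limma adjusted p = 0.444), and 0.10 without DJB 2.

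In all, 3 of the 10 genes had groups that did not overlap, where 21.1% of all genes did. Of these, Gip and Cck lay below sham, as did 6.56% of all genes, and Ghrl lay above, as did 14.5%. Counts this small do not set the 10 genes apart from the rest of the array.

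Sst, Tph1 and Chga, which are not tied to either end of the gut, had differences smaller than the spread of the rats. Sst encodes somatostatin, the inhibitory peptide of D cells and some enteric neurons, and had 7.15, 7.20 and 6.83 in DJB 1, 2 and 3, against 6.81, 6.97 and 7.21 in sham 1, 2 and 3. Tph1 encodes the enzyme that limits serotonin synthesis in enterochromaffin cells, and had 7.02, 6.75 and 6.74 in DJB 1, 2 and 3, against 6.43, 6.73 and 7.11 in sham 1, 2 and 3. In each of these genes the groups overlapped.

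Rodent mast cells express Tph1 as well, and the 7 mast cell markers averaged 5.46 to 5.83 on the DJB arrays and 5.65 to 5.77 on the sham arrays. Chga encodes chromogranin A, the granule protein used as a general marker of endocrine cells, and had 7.55, 7.62 and 7.20 in DJB 1, 2 and 3, against 7.38, 7.38 and 7.64 in sham 1, 2 and 3. Its difference was -0.01 ± 0.13 (SE; limma adjusted p = 0.979), with a 95% interval from -0.31 to 0.29. The differences of Sst and Tph1 were 0.06 ± 0.14 and 0.08 ± 0.17 (SE; limma adjusted p = 0.880 and 0.874), and the signs of all 3 turned when single arrays were left out.

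**Figure D2:**
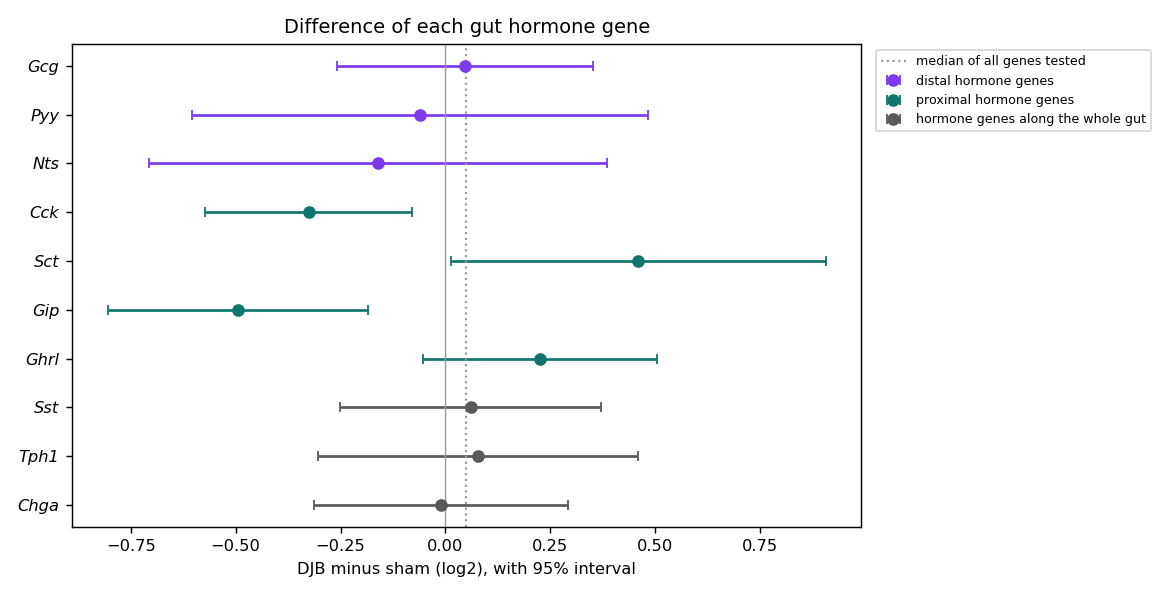
Difference between DJB and sham (log2, horizontal axis) of each gene, with its 95% interval from limma, coloured by region of the gut; the dotted line is the median over all genes tested, 0.05. The intervals of the distal genes, of Ghrl and of Sst, Tph1 and Chga include 0, those of Gip and Cck lie below 0, that of Sct lies just above 0, and no gene passed the adjusted threshold.

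The rats within a group differed from each other in most hormone genes at once. In 9 of the 10 genes, all but Cck, DJB 3 was the lowest of the DJB rats, while over all genes tested DJB 3 was the lowest in 43.5%. In 9 of the 10, all but Gip, sham 3 was the highest of the sham rats, against 38.5% of all genes. Sham 1 was the lowest sham rat in 6 (Gcg, Pyy, Nts, Sct, Sst and Tph1), against 35.1% of all genes. Measured from the mean of its own group, DJB 3 averaged -0.22 over the 10 genes and -0.04 over all genes, and sham 3 averaged 0.20 over the 10 genes and 0.01 over all genes.

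**Figure D3:**
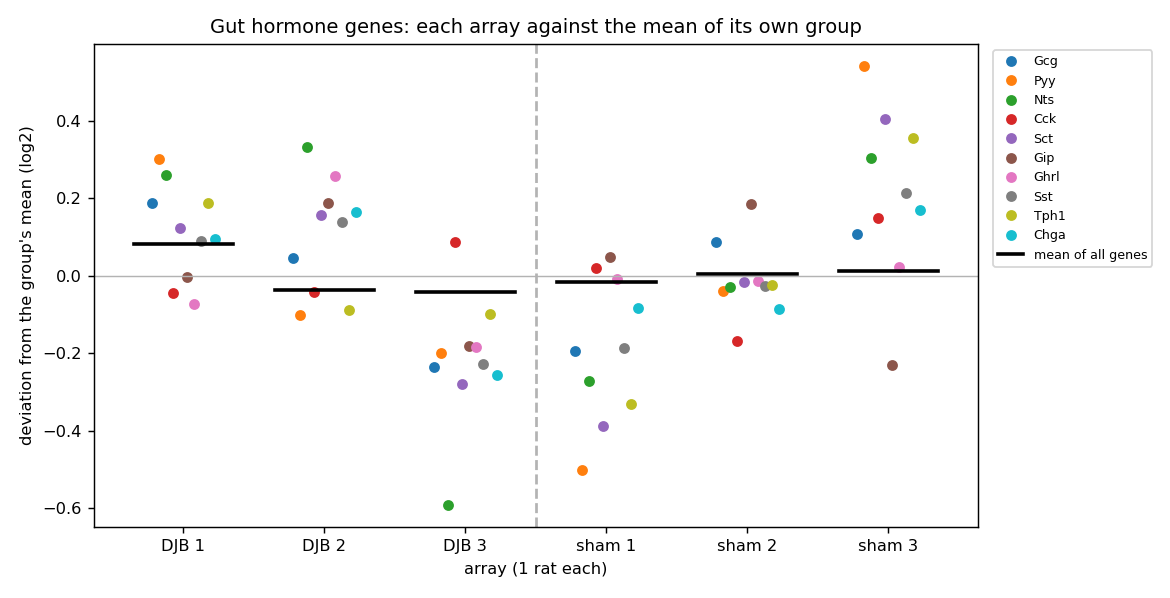
Distance of each gene on each array from the mean of that gene in the array's own group (log2, vertical axis), for the 3 DJB and 3 sham rats; the black lines are the mean over all genes tested. DJB 3 lies below its group in 9 of the 10 genes and sham 3 above its group in 9 of the 10.

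Markers of other cells also differed on DJB 3. Relative to the DJB mean they averaged -0.17 for 6 smooth muscle markers, -0.20 for 8 neuron and glia markers and -0.19 for 7 mast cell markers on that array, but -0.01 for 7 epithelium markers. On sham 3 the same averages were 0.07, 0.01, -0.03 and 0.06, all smaller than the 0.20 of the hormone genes. The 5 ileum markers, however, averaged 0.21 on sham 3, close to the hormone genes, and -0.08 on DJB 3. The 4 colon markers averaged 0.13 on sham 3 and 0.16 on DJB 3. What any of these had to do with the spread was not tested. Pancreatic islets also make glucagon and somatostatin, and the pancreas markers averaged 5.28 to 5.38 on the DJB arrays and 5.17 to 5.52 on the sham arrays, with 6 of 8 under 6.11, among them Ins1 and Ins2.

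For the genes most variable over the 6 arrays, Sct, Nts and Pyy (SD 0.39, 0.38 and 0.37), the genes with the most similar profile were found by the mean absolute difference over the 6 arrays after each gene was centred on its own mean. Closest to Sct were Pdgfc, Slc19a2 and Trib1 (0.09 each). Closest to Nts were Unc5b (0.09), Cmtm3 (0.10) and Itgb6 (0.10), and closest to Pyy were Mertk (0.10), Lcn5 (0.11) and Tsku (0.11).

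Other genes of enteroendocrine cells and of hormone action were described from 7 lists with 101 genes, 93 of them measured. By the same test 0 rose and 1 fell, and 18 had an unadjusted p under 0.05, or 19.4% of those measured against 14.3% of all genes. The mean level was under the median of all values in most of them (39 of 93 lay above), so many rest on dim rows.

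Precursor processing and granule genes (13 measured of 14, median -0.04) had 0 members past the threshold. Pcsk1, also a convertase gene, was the 1 not measured. The measured genes had limited differences either way, from -0.32 to 0.22. They include Pcsk2, a convertase that cuts prohormones, at 5.31 ± 0.16 after DJB and 5.09 ± 0.04 in sham (SD, n = 3 each), and Resp18, a protein of the secretory pathway, at 6.27 ± 0.23 after DJB and 6.59 ± 0.27 in sham. Transcription factors of the lineage (12 of 15, median 0.12) also had 0 members past it. Neurog3, which starts the endocrine fate in crypt cells, stood at 5.47 ± 0.10 after DJB and 5.29 ± 0.11 in sham, and Foxa1 at 5.92 ± 0.14 after DJB and 5.70 ± 0.10 in sham.

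Nutrient and bile acid sensors (13 of 15) had a median of 0.14, with 10 higher and 3 lower after DJB and 0 past the threshold. Of the 13, 6 had a limma unadjusted p under 0.05 and 5 had groups that did not overlap. Over all genes tested, 61.7% were higher and 38.3% lower, 14.3% had such a p and 21.1% did not overlap. Ffar4, a receptor for long-chain fatty acids on L and other endocrine cells, had 8.12, 7.89 and 7.73 in DJB 1, 2 and 3, against 7.36, 7.39 and 7.47 in sham 1, 2 and 3. The groups did not overlap, and the difference of 0.51 ± 0.12 (SE) had limma adjusted p = 0.103. It passed with dim genes left out (limma adjusted p = 0.0462) and with a trended, robust prior (0.0373), but under none of the other alternatives, where the adjusted p ran from 0.0700 with quantile normalisation repeated to 0.261 without sham 1. Slc5a1, the sodium-glucose cotransporter through which L and K cells sense glucose and enterocytes absorb it, had 12.39, 12.48 and 12.39 in DJB 1, 2 and 3, against 12.64, 12.85 and 12.75 in sham 1, 2 and 3 (difference -0.33 ± 0.10, SE; limma adjusted p = 0.182). Slc5a1 passed only with the trended, robust prior (limma adjusted p = 0.0376).

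Receptors of the hormones (21 of 22, median 0.10) had 14 higher and 7 lower, a share of 66.7% higher beside the 61.7% of all genes, and 0 past the threshold. Npy2r, which encodes a receptor of peptide YY, was at 5.63 ± 0.24 after DJB and 6.01 ± 0.07 in sham, and the somatostatin receptor gene Sstr2 at 5.60 ± 0.15 after DJB and 5.30 ± 0.08 in sham (SD, n = 3 each). Their limma adjusted p was 0.227 and 0.244.

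Among genes of serotonin synthesis and removal (9 of 9, median 0.04), 0 passed. The amine-degrading enzyme genes Maob and Maoa lay on opposite sides. Maob had 8.62, 8.00 and 7.08 in DJB 1, 2 and 3, against 9.32, 9.27 and 9.29 in sham 1, 2 and 3. Its difference of -1.39 ± 0.31 (SE) had limma adjusted p = 0.0992, and without DJB 1 it was -1.75 and passed (0.0197). Without DJB 3 it was -0.98 (limma adjusted p = 0.0587), and it passed under none of the other alternatives, where the adjusted p ran from 0.0537 to 0.258. Maoa stood at 10.05 ± 0.09 after DJB and 9.71 ± 0.21 in sham (limma adjusted p = 0.264).

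Of 10 genes that activate or break down peptide hormones (median -0.02), Ace, the brush border peptidase known as angiotensin-converting enzyme, fell. It had 10.51, 10.31 and 9.86 in DJB 1, 2 and 3, against 11.22, 11.06 and 11.32 in sham 1, 2 and 3, a difference of -0.98 ± 0.16 (SE; limma adjusted p = 0.0333). Leaving out DJB 2 or any single sham array ended the call (limma adjusted p up to 0.149), as did testing all rows of the table (0.0744) and the replicate block (0.103). Dpp4, which inactivates GLP-1 and GIP, differed by -0.09 ± 0.11 (SE; limma adjusted p = 0.762). Dpp4, like Mme below, was chosen after its values were seen. Mme, the peptidase neprilysin, had 11.57, 11.64 and 11.95 in DJB 1, 2 and 3, against 12.14, 12.22 and 12.29 in sham 1, 2 and 3 (limma adjusted p = 0.122). Mme passed only with a trended, robust prior (limma adjusted p = 0.0221).

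Other gut peptides (15 of 16, median -0.01) had 0 past the threshold. Guca2b, which encodes uroguanylin, a luminal regulator of salt and water secretion, had 11.84, 11.52 and 11.30 in DJB 1, 2 and 3, against 12.16, 12.09 and 12.37 in sham 1, 2 and 3 (difference -0.66 ± 0.15, SE; limma adjusted p = 0.0989). It passed with dim genes left out (limma adjusted p = 0.0487), with a trended, robust prior (0.0385) and without DJB 1 (0.0383). Under the other alternatives it did not, with 0.0606 to 0.289. Npy, the neuronal relative of Pyy, had 8.24, 8.05 and 7.75 in DJB 1, 2 and 3, against 7.35, 7.43 and 7.52 in sham 1, 2 and 3 (difference 0.58 ± 0.13, SE; limma adjusted p = 0.105). Npy passed only with the trended, robust prior (limma adjusted p = 0.0334). Guca2b and Npy were named for the lowest p of the list, and both had groups that did not overlap. The same held for Nmu and Gal, which made 4 of the 15 genes, beside 21.1% of all genes tested. Nmu had the largest difference of the list, -0.997 (limma adjusted p = 0.159).

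**Figure D4:**
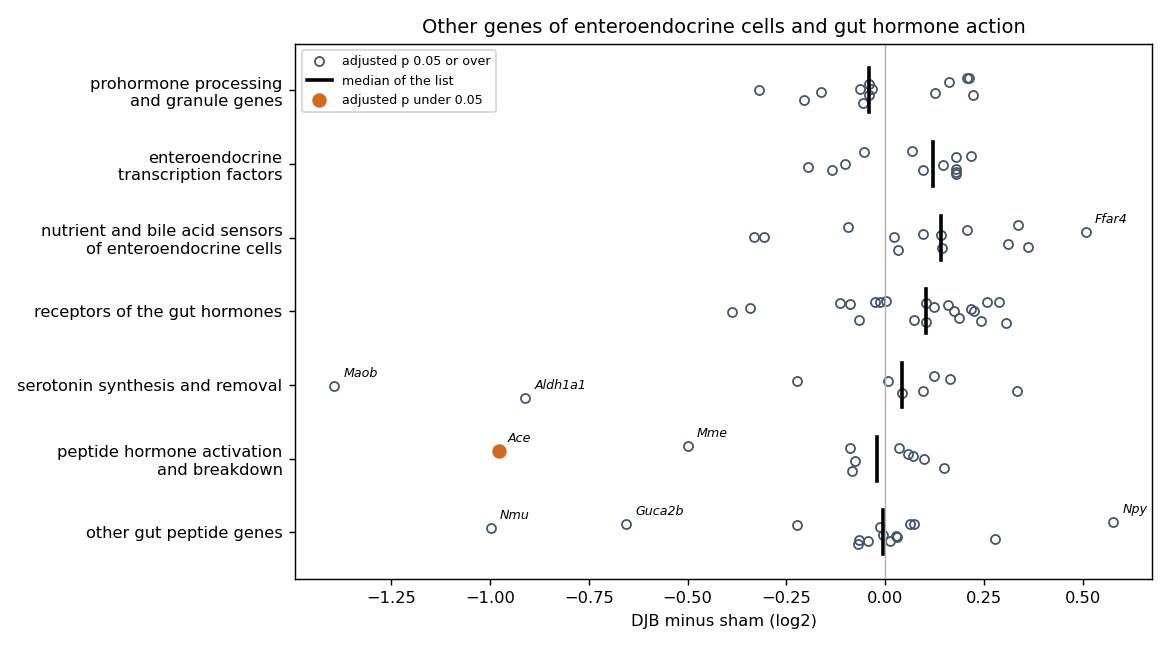
Difference between DJB and sham (log2, horizontal axis) of each measured gene in the 7 lists; each circle is 1 gene, the vertical bars are list medians, and genes furthest from 0 are named. Ace is the 1 filled point, past the adjusted threshold at -0.98, and list medians lie between -0.04 and 0.14.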

How the data were processed

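RNA of the ileum of 3 DJB and 3 sham rats was measured, 1 array per rat. The deposited table holds log2 expression values (29214 rows, 6 arrays) that the authors made with RMA. The submitters' processing notes give its name alone. RMA corrects background, quantile normalises and summarises probes, so the size of a shift shared by most genes cannot be read from these values. They still hold a small offset. The median difference over all genes tested, 0.05, was 0.0096 without DJB 1 and 0.013 with quantile normalisation repeated. The values were used as deposited. Of the rows, 15310 carry 1 gene symbol in the platform annotation, and the row with the highest mean was taken for the 527 genes with several, which left 14506 genes. The genome build behind the rows and scan batches are not given in the sources used here. The number of arrays limits the precision.

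DJB minus sham was tested with limma 3.58.1 (lmFit, eBayes, no covariate, two-sided) in R 4.3.3, with Benjamini-Hochberg adjustment over all 14506 genes and a threshold of 0.05; SE and 95% intervals are moderated. The test was checked on simulated data. The gene list and all other lists, markers and rules were chosen with earlier results of these data known. Named genes were the 10, from each related list those past the threshold or else the 2 of lowest p, and 3 of most similar profile for each of the 3 most variable genes; marker genes were named after their values were seen. Numbers shared by DJB and sham rats were not taken as pairs in the main test. Deviations of same-numbered arrays correlated at 0.01, -0.12 and -0.15, and those of differently numbered arrays at -0.06 to 0.17. Deviations within a group of 3 sum to 0, so these values cannot settle whether the numbers pair the rats. Promoter runs came from a RefSeq table of GRCr8. Figures used matplotlib 3.10.9 in Python 3.11.15. The alternatives tried are given in the closing section.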

Additional observations from a re-analysis of the deposited data

How the results depend on the processing

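None of the 10 gut hormone genes passed under any of the 13 alternatives run (8 of them tested with dim genes left out), and the lowest adjusted p was 0.102 (limma with a trended, robust prior, for Gip). At an unadjusted p under 0.05 their number was 2 to 4. Cck and Gip were below it under most alternatives, Sct was over it under most, and Ghrl was below it only without DJB 3. With the array number as a block, which is not known to pair the rats, 2 of the 10 were below it (lowest limma adjusted p = 0.174). Under this block 50 genes of the array passed the adjusted threshold in place of 112. None of the hormone breakdown genes then passed (0 in place of 1) and 1 of the other gut peptides did (Nmu). The array count was 225 with dim genes left out and 313 with the trended, robust prior, where 2 sensors, 2 breakdown genes and 2 other peptides passed; with dim genes left out 1 sensor and 1 other peptide did. The proximal median was 0.067 without dim genes, which removes Gip and Ghrl.

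Leaving out 1 array gave differences of -0.051 to 0.16 for Gcg, -0.31 to 0.21 for Pyy, -0.33 to 0.13 for Nts, -0.033 to 0.17 for Sst, -0.088 to 0.26 for Tph1 and -0.093 to 0.12 for Chga. Cck (-0.41 to -0.25), Gip (-0.61 to -0.40), Sct (0.27 to 0.66) and Ghrl (0.10 to 0.32) kept their direction. The array count ran from 33 without sham 3 to 108 without DJB 1, the distal median from -0.30 to 0.13 and the proximal median from -0.10 to -0.0073. Calls ran from 0 to 2 in the serotonin list and from 0 to 1 in the breakdown and other peptide lists.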
